A study of Canis lupus familiaris with 8 samples.

Results

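TBX21, EOMES and ZEB2 are 3 of the 20257 genes measured in the αβ T cells of dog blood, and they were chosen by name: the rows called TBX21 (ENSCAFG00000016705), EOMES (ENSCAFG00000005510) and ZEB2 (ENSCAFG00000005497). The cells were sorted by their αβ T cell receptor from 4 healthy Beagles, all of which had been given routine vaccinations. Each dog gave 1 library of 5′ gene expression and 1 of T cell receptor sequences. The only female was dog 1, aged 5 years, and of the males dogs 2 and 3 were aged 7 years and dog 4 was aged 9 years. The dog was the replicate (n = 4), and neither age nor sex was tested. A level below is a count of unique molecular identifiers (UMIs), summed over the cells of a group in a dog and given per 1000000 UMIs of those cells (CPM).

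TBX21 encodes T-bet, the T-box factor that drives the T helper type 1 programme and, in cytotoxic lymphocytes, the genes of the killing machinery. EOMES (eomesodermin) is the other T-box factor of these cells and has been tied to memory and to granzyme K in other species. ZEB2 is a zinc finger repressor that acts downstream of T-bet in terminally differentiated effector T cells, while its relative ZEB1 is known from memory cells. Granzyme B (GZMB) and granzyme K (GZMK) are proteases of cytotoxic granules, and KLRK1 encodes the activating receptor NKG2D, so cells with and without these transcripts are groups in which the levels of the factors can be compared.

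The 4 libraries held 33125 barcodes, of which 31909 with 500 to 20000 UMIs and at most 10% mitochondrial UMIs were kept (7096 to 8454 per dog, median 3599 to 3932 UMIs). Between 87 and 120 barcodes were shared by each pair of libraries, at most 1.43% of the smaller one. Cells with at least 1 CD8A UMI and no CD4 UMI, called CD8A single-positive (sp), numbered 691, 1427, 2280 and 2029 in dogs 1 to 4, and CD4 sp cells, defined the other way round, numbered 3658, 3629, 2716 and 3244. The remaining cells had UMIs of neither gene (11510, double-negative) or of both (725, double-positive). At this depth a cell with no UMI of a gene cannot be called a cell without its transcript. The transcripts were read at their 5′ ends, and each gene was compared between groups of cells, not with the other genes.

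TBX21 was found with 6474 UMIs in 4459 cells (14% of all kept cells), EOMES with 2015 UMIs in 1623 cells (5.09%) and ZEB2 with 1960 UMIs in 1483 cells (4.65%). CD8A sp cells, 6427 in all, held 62.9% of the TBX21, 71.6% of the EOMES and 81.1% of the ZEB2 UMIs. The 13247 CD4 sp cells held 16.6%, 7.99% and 3.88%. ZEB2 was thus the member most concentrated in CD8A sp cells by this count.

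In CD8A sp cells the TBX21 level was 96.5, 112, 180 and 190 CPM in dogs 1 to 4, against 6.25, 19.3, 20 and 34.1 CPM in CD4 sp cells. The EOMES level was 42.8, 59.8, 58.2 and 55.2 CPM in CD8A sp cells and 0.421, 3.22, 4.24 and 4.20 CPM in CD4 sp cells. The ZEB2 level was 33.9, 38.7, 69.3 and 80.4 CPM in CD8A sp cells and 0.421, 0.837, 1.68 and 2.80 CPM in CD4 sp cells. Dog 1 had the lowest level of each of the 3 genes in both groups.

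The comparison of CD8A sp with CD4 sp cells asked how far the factors follow the lineage. TBX21 was higher in CD8A sp cells by 2.87 on the log2 scale (SE 0.467, adjusted p = 0.00633), EOMES by 4.18 (SE 0.421, adjusted p = 0.000493) and ZEB2 by 5.31 (SE 0.491, adjusted p = 0.000362), each in 4 of 4 dogs. These and all later adjusted p-values without another tool named are from edgeR's quasi-likelihood test on the summed UMIs, adjusted over all genes tested by the Benjamini-Hochberg method, and a gene was called at an adjusted p under 0.05. Of all genes tested in this comparison 14% were called, 7.44% higher and 6.52% lower (1413 of 10118, and 2782 with the dog as a block). The 3 calls held in every alternative run, from leaving out a dog to another normalization.

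The share of CD8A sp cells with a UMI was 27.8% to 45.5% over the dogs for TBX21, 14.3% to 20.2% for EOMES and 11.4% to 23.2% for ZEB2. In CD4 sp cells it was 2.16% to 12.1%, 0.137% to 1.55% and 0.164% to 1.08%. As the background, CD4 sp cells with UMIs of both CCR7 and LEF1, genes of naive T cells, and none of GZMB, GZMK and KLRK1 had a TBX21 UMI in 3.33% of cells, an EOMES UMI in 0.213% and a ZEB2 UMI in 0.195% (means over dogs, 3899 cells). The differences between CD8A sp and CD4 sp cells were 29.1 ± 5.65, 16.4 ± 2.05 and 16.3 ± 5.17 percentage points (mean ± SD, n = 4), in the same direction in 4 of 4 dogs, and the exact sign-flip permutation test gave a two-sided p of 0.13 for each, the smallest that 4 dogs allow. Cells were also thinned to 2000 UMIs each, which left out the 715 CD8A sp and 1465 CD4 sp cells with fewer. The shares were then 24.2%, 10.6% and 10.4% of CD8A sp and 3.29%, 0.534% and 0.235% of CD4 sp cells.

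Lists of other genes, some of which share members (IFNG, TCF7, LEF1, BACH2, ID3, KLF2 and STAT4 stand on more than 1), were counted in the same test. Of the effector genes 18 of 20 tested were higher in CD8A sp cells and none was lower, with a median log2 fold change of 4.52 (all genes -0.005). Among them were PRF1, which encodes the pore-forming perforin (3.68, adjusted p = 0.00587), the chemokine gene CCL5 (5.75, adjusted p = 0.000832) and S1PR5, a sphingosine phosphate receptor gene that guides effector cells out of tissue (7.70, adjusted p = 1.21e-05). Of the type 1 genes, which serve interferon gamma responses, 4 of 11 were higher, such as IL2RB (2.20, adjusted p = 0.00213), and none was lower. Of the naive and memory genes 7 of 11 were lower, among them CD28 (-1.40, adjusted p = 0.00214), and none was higher. Of 25 other transcription factors 6 were higher and 9 lower. RUNX3, a factor of the CD8 lineage, was higher by 0.98 (adjusted p = 0.000856) and IRF8 by 5.41 (adjusted p = 0.00172). GATA3, the factor of type 2 helper cells, was lower by 0.70 (fold change -0.70, adjusted p = 0.00105), TOX2 by more (-2.59, adjusted p = 0.000688), and ID3, a factor of memory cells, was lower as well (-1.97, adjusted p = 0.000406). All of the genes named here moved the same way in 4 of 4 dogs.

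The presence of the granzymes separated the levels within the CD8A sp cells. Cells were split by the presence of GZMB, GZMK and KLRK1 UMIs into 8 exclusive combinations in each lineage, and 13 combinations had at least 20 cells in 3 or more dogs. For TBX21 the order began with GZMB+GZMK+KLRK1- CD8A sp cells (263 ± 86.6 CPM, mean ± SD, n = 4), followed by GZMB+GZMK-KLRK1- (219 ± 90.9) and GZMB+GZMK+KLRK1+ cells (216 ± 45.6). CD8A sp cells with none of the 3 transcripts were near the end, at 17.2 ± 4.58 CPM, just above CD4 sp cells with none, at 15.2 ± 10.6 CPM. No neighbours in this order differed by more than the larger of their SDs, which are spreads over dogs and take no account of the pairing. The first group was above the second in 4 of 4 dogs. So were GZMB+GZMK-KLRK1- CD4 sp cells (28.6 ± 12.5 CPM) above CD8A sp cells with none. GZMB-GZMK-KLRK1+ CD8A sp cells (45.2 ± 11.7) were below GZMB-GZMK+KLRK1+ CD8A sp cells and above GZMB-GZMK+KLRK1+ CD4 sp cells, each in 3 of 3 dogs. Every other step failed in at least 1 dog.

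**Figure D1:**
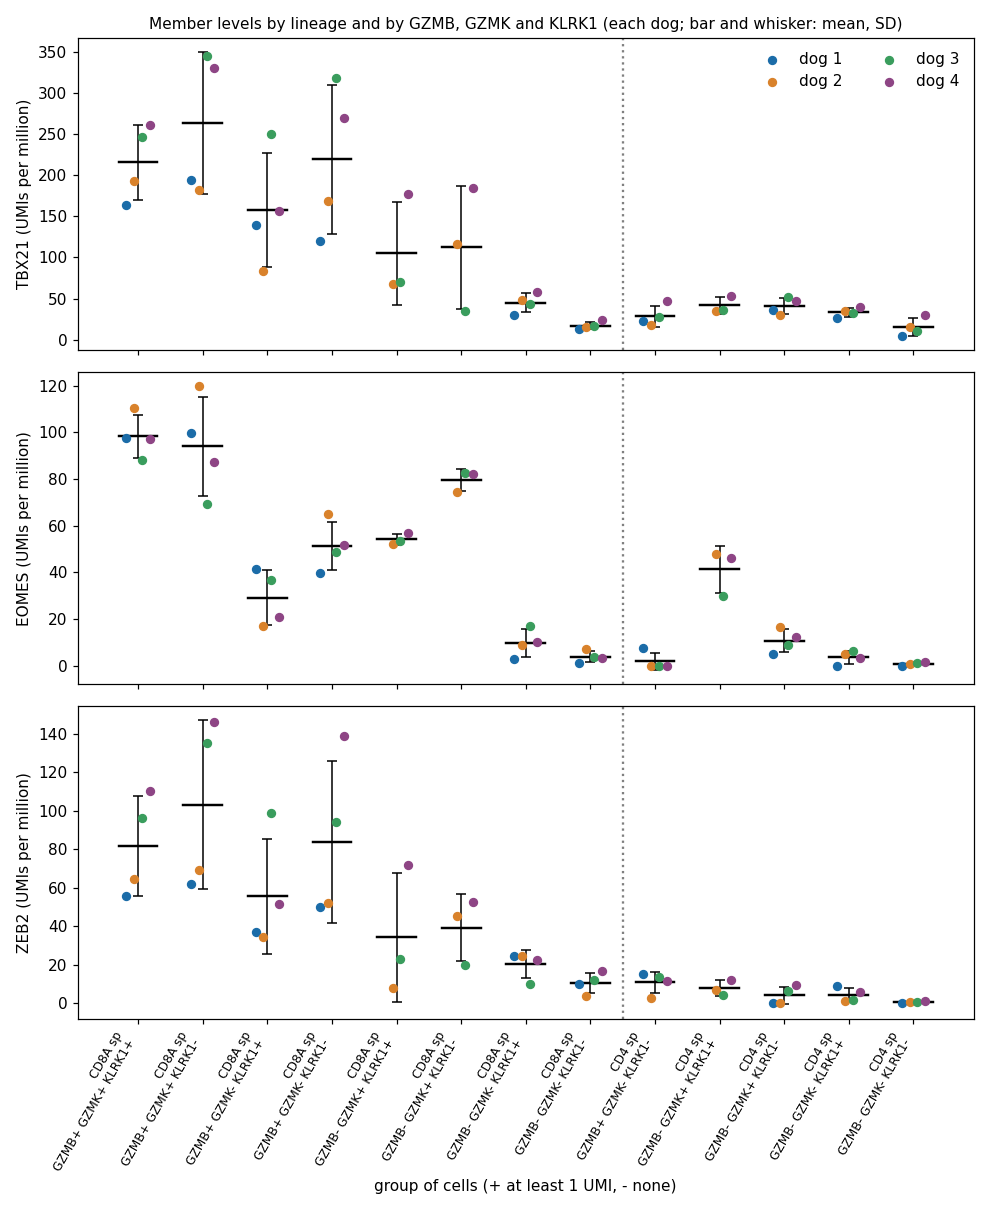
Level of TBX21, EOMES and ZEB2 (CPM, vertical axes) in CD8A sp and CD4 sp cells split by the presence of GZMB, GZMK and KLRK1 UMIs; each point is 1 dog and each bar the mean of the dogs with at least 20 cells. The EOMES level of the CD8A sp cells is 98.3 and 94.0 CPM in both groups with GZMB and GZMK. It is 51.4 CPM in GZMB+GZMK-KLRK1- cells and 29.1 CPM in GZMB+GZMK-KLRK1+ cells. The mean TBX21 level is 158 CPM or more in every CD8A sp group with GZMB, with single dogs down to 84.0 CPM.

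In mean level, EOMES was highest in the CD8A sp groups with GZMK. The first 4 places were taken by the 4 CD8A sp combinations with GZMK: 98.3 ± 9.07 CPM in GZMB+GZMK+KLRK1+ cells, 94.0 ± 21.2 in GZMB+GZMK+KLRK1- cells, then 79.7 ± 4.73 and 54.2 ± 2.47 (n = 3) in the cells without GZMB, lacking and holding KLRK1. The last of these was above the next group, GZMB+GZMK-KLRK1- CD8A sp cells (51.4 ± 10.4 CPM), in 2 of 3 dogs. The levels were 52.2 against 65.0 CPM in dog 2, 53.3 against 48.9 in dog 3 and 56.9 against 51.6 in dog 4. Among cells of intermediate depth, described below, the order of these groups by mean level was reversed. GZMB+GZMK-KLRK1+ CD8A sp cells had 29.1 ± 11.8 CPM, below GZMK+KLRK1+ CD4 sp cells without GZMB, at 41.4 ± 10.1 CPM (n = 3). That gap was larger than either SD, but the means rest on 3 and 4 dogs, and the CD4 sp cells were higher in 2 of 3 dogs. Also larger than either SD were the gaps from 79.7 to 54.2 CPM and from 29.1 to 10.8 CPM, the level of GZMB-GZMK+KLRK1- CD4 sp cells. CD4 sp cells with none of the 3 transcripts had 0.839 ± 0.621 CPM.

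By mean level, the order for ZEB2 began with the groups with GZMB. The first 4 places were the 4 CD8A sp combinations with GZMB, at 103 ± 43.8, 83.8 ± 42.1, 81.7 ± 25.8 and 55.5 ± 30.0 CPM for GZMB+GZMK+KLRK1-, GZMB+GZMK-KLRK1-, GZMB+GZMK+KLRK1+ and GZMB+GZMK-KLRK1+ cells. GZMB+GZMK-KLRK1+ cells were above the next group, GZMB-GZMK+KLRK1- CD8A sp cells (39.2 ± 17.3 CPM), in 1 of 3 dogs. They were at 34.3 against 45.2 CPM in dog 2, 99.1 against 19.7 in dog 3 and 51.6 against 52.8 in dog 4. TBX21 had the same 4 groups in its first 4 places, and there too this step held in 1 of 3 dogs. For ZEB2 the only neighbouring gap beyond the larger SD lay between GZMB-GZMK-KLRK1+ CD8A sp cells, at 20.4 ± 7.16 CPM, and GZMB+GZMK-KLRK1- CD4 sp cells, at 10.7 ± 5.58 CPM. That step held in 3 of 4 dogs. The first group was above the second in 4 of 4 dogs, although that gap was within their SDs. CD4 sp cells with none of the transcripts stood at 0.508 ± 0.316 CPM.

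GZMB was found in 54.4% to 64.5% of the CD8A sp cells of a dog. In cells with GZMB, the TBX21 level was 155, 170, 270 and 260 CPM in dogs 1 to 4, and in cells without it 27.1, 46.5, 41.8 and 80.6 CPM. The EOMES level was 73.5, 92.1, 77.4 and 75.3 CPM with GZMB and 6.20, 23.1, 28.8 and 23.4 CPM without. The ZEB2 level was 50.1, 59.2, 104 and 111 CPM with GZMB and 14.7, 15.4, 15.6 and 31.7 CPM without. Each gene was higher with GZMB in 4 of 4 dogs.

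All 3 differences were called: 2.07 on the log2 scale for TBX21 (SE 0.327, adjusted p = 0.0129), 1.82 for EOMES (SE 0.254, adjusted p = 0.00362) and 2.05 for ZEB2 (SE 0.359, adjusted p = 0.0161), in a comparison in which 7.49% of 8959 genes were called, 4.07% higher and 3.42% lower (671, and 1646 with the dog as a block). The median UMI count was 3511 in cells with GZMB and 4184 in cells without. The sum of the 3 NK cell markers moved with this split: 18.9 to 25.5 CPM over the dogs with GZMB, where 1 of them was at 0, and 5.43 to 8.64 CPM without. NCR1, the only 1 tested, was called (1.80, adjusted p = 0.00114). It made up most of the sum: over all CD8A sp cells NCR1 was at 16.1 CPM, KLRF1 at 0.194 and NCAM1 at 0.233. The part of these markers in the result was not tested. Without dog 2 the adjusted p rose to 0.0818, 0.0534 and 0.0627, and without dog 3 to 0.101 for TBX21 and 0.115 for ZEB2.

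Of 19 effector genes tested with them (GZMB left out), 6 were higher in the cells with GZMB and none was lower (13 of them called with the dog as a block, 12 higher), with a median log2 fold change of 1.48 against -0.008 over all genes. PRF1 was higher by 2.35 (adjusted p = 0.00774), FASLG, the gene of the death ligand Fas ligand, by 1.98 (adjusted p = 0.00634) and CX3CR1, a chemokine receptor gene of circulating effector cells, by 2.65 (adjusted p = 0.0129). Of 11 type 1 genes IL2RB alone was called (1.05, adjusted p = 0.0359), and of 10 naive and memory genes 4 were lower. The 21 other transcription factors gave 3 higher and 3 lower. Those higher were RUNX3 (0.73, adjusted p = 0.0105), NFIL3 (1.53, adjusted p = 0.00483) and NR4A1, an immediate early gene of receptor signalling (1.07, adjusted p = 0.0287). TCF7, the gene of the memory factor TCF-1, was lower by 1.82 (fold change -1.82, adjusted p = 5.71e-05) and ID3 by more (-2.25, adjusted p = 5.71e-05). Each moved the same way in 4 of 4 dogs. Without dog 2 the effector genes called were 2.

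GZMK was found in 38.4% to 68.1% of the CD8A sp cells of a dog. EOMES was at 90.6, 99.4, 78.0 and 88.6 CPM in cells with GZMK and at 16, 14.4, 18 and 17 CPM in cells without. TBX21 was at 162, 164, 221 and 266 CPM with GZMK and at 60.1, 52.6, 95.8 and 104 CPM without. ZEB2 was at 51.2, 54.7, 86.1 and 112 CPM with GZMK and at 24.3, 20.4, 34.9 and 44.1 CPM without. Each of the genes was higher with GZMK in 4 of 4 dogs.

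EOMES differed by 2.47 on the log2 scale (SE 0.117, adjusted p = 7.88e-08), and its adjusted p was at most 2e-05 in every alternative. TBX21 differed by 1.42 (SE 0.265, adjusted p = 0.0256), and its call was lost without dog 1 (adjusted p = 0.114), without dog 3 (0.0991) and without the filter on low counts (0.0559). ZEB2 differed by 1.35 and missed the threshold (SE 0.324, adjusted p = 0.0606), but passed it with the dog as a block (1.35, adjusted p = 1.47e-09). In this comparison 5.09% of 8902 genes were called, 3.17% higher and 1.92% lower (453, and 1219 with the dog as a block). The NK cell markers, mostly NCR1, summed to 21.2 to 28.1 CPM with GZMK and 4.84 to 7.97 CPM without. NCR1 was called (2.14, adjusted p = 9.55e-05), and the part of these markers was not tested.

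With GZMK, 10 of 19 effector genes were higher and 1 was lower (15 and 1 with the dog as a block), at a median log2 fold change of 1.51. GZMB was higher by 2.02 (adjusted p = 0.00791) and KLRG1, a receptor gene of differentiated effector cells, by 1.95 (adjusted p = 0.0276). The gene that was lower was IFNG, which encodes interferon gamma and is also a type 1 gene (-1.95, adjusted p = 0.0297). IL12RB2, a chain of the interleukin 12 receptor, was among 3 of 11 type 1 genes that were higher (1.34, adjusted p = 0.0309), and IFNG was lower. Of the naive and memory genes 3 of 11 were lower and 1 was higher, the costimulatory receptor gene CD27 (0.91, adjusted p = 0.00534). Among 23 other transcription factors 4 were higher, such as STAT4 (0.64, adjusted p = 0.00196) and RUNX3 (0.70, adjusted p = 0.0386), and 5 were lower, such as TCF7 (-1.82, adjusted p = 1.35e-05) and ZNF683, the gene of the factor HOBIT (-1.13, adjusted p = 0.0208). The directions held in 4 of 4 dogs for each gene named. Without dog 1 the effector genes called were 1 of 19.

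No difference of the factors by KLRK1 passed the test in CD8A sp cells. The TBX21 level was 125, 126, 185 and 175 CPM in cells with KLRK1 and 61.1, 88.0, 169 and 216 CPM in cells without, so that dog 4 ran against the other dogs. EOMES was at 55.5, 64.9, 67.3 and 54.1 CPM with KLRK1 and at 27.0, 51.1, 39.3 and 56.9 CPM without. ZEB2 was at 40.2, 43.1, 70.8 and 70.3 CPM with KLRK1 and at 26.2, 31.1, 66.0 and 97.4 CPM without. On the log2 scale the differences were, for TBX21, 0.15 (95% interval -0.78 to 1.08, adjusted p = 0.990), for EOMES 0.42 (0.05 to 0.79, adjusted p = 0.619) and for ZEB2 -0.03 (-1.04 to 0.99, adjusted p = 0.999). In all 0.0339% of 8848 genes were called, 3 genes (645 at an unadjusted p under 0.05, 51 by DESeq2 and 247 with the dog as a block), and no gene of the effector, type 1, naive and memory or transcription factor lists was among them (4, 2, 6 and 2 with the dog as a block). The split pooled groups that went different ways. In cells without GZMB and GZMK, TBX21 was at 30.2, 48.8, 43.7 and 58.2 CPM with KLRK1 and 12.7, 15.9, 16.6 and 23.5 CPM without, higher in each dog. In cells with GZMB and GZMK it was at 163, 193, 247 and 261 CPM with KLRK1 and 195, 182, 345 and 330 CPM without, lower in dogs 1, 3 and 4. Differences by KLRK1 within these groups were not tested.

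**Figure D2:**
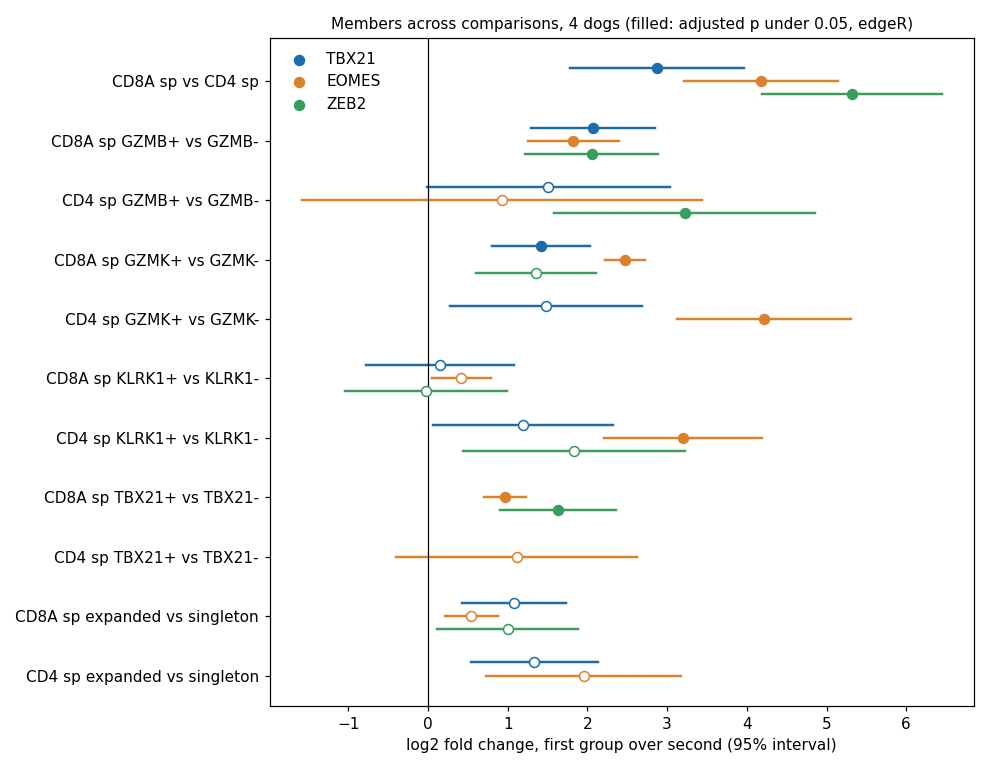
Log2 fold changes of TBX21, EOMES and ZEB2 (horizontal axis) between cells with and without GZMB, GZMK or KLRK1 and in the other comparisons, with 95% intervals; filled points passed an adjusted p of 0.05 and open points did not. EOMES lies at 2.47 for GZMK in CD8A sp cells with the shortest interval, and at 4.21 and 3.20 for GZMK and KLRK1 in CD4 sp cells with wide ones.

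CD4 sp cells held the factors rarely, and the counts behind each value were small. GZMB was found in 0.875% to 2.96% of CD4 sp cells (305 in all), GZMK in 2.54% to 12.5% (1066) and KLRK1 in 0.711% to 14.4% (1165). In the 305 cells with GZMB there were 17 ZEB2 UMIs, 2, 2, 6 and 7 in dogs 1 to 4, or 12.1, 3.16, 16.3 and 15.5 CPM. The 12942 cells without GZMB had 59 ZEB2 UMIs and 0.284, 0.738, 1.19 and 2.36 CPM. ZEB2 was higher with GZMB by 3.22 on the log2 scale (SE 0.760, adjusted p = 0.0468, 4 of 4 dogs), where 2.35% of 9503 genes were called, 1.84% higher and 0.505% lower (223, and 954 with the dog as a block). This call rested on each of dogs 2, 3 and 4 (adjusted p without them 0.162, 0.258 and 0.0667), and it was lost with at least 2 GZMB UMIs required (adjusted p = 0.415) and in cells of 2000 to 6000 UMIs (0.324).

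TBX21 in the same CD4 sp cells was at 36.2, 33.1, 76.2 and 70.7 CPM with GZMB and at 5.90, 18.7, 18.2 and 32.8 CPM without. It was higher in 4 of 4 dogs, by 1.51 on the log2 scale, and did not pass the test (SE 0.646, adjusted p = 0.312), while with the dog as a block it did (1.38, adjusted p = 4.38e-09). EOMES had 9 UMIs in the cells with GZMB and differed by 0.93 (95% interval -1.59 to 3.44, adjusted p = 0.746). Cells with GZMB had a median of 4549 UMIs, against 3955 over all CD4 sp cells. Of those with a productive TRB chain, 5.04% carried more than 1, against 3.84% over all CD4 sp cells counted the same way.

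In the same comparison 4 of 17 effector genes were higher (13 with the dog as a block), among them GZMA, the gene of granzyme A (4.26, adjusted p = 0.00871) and CCL5 (4.17, adjusted p = 0.0176), both in 4 of 4 dogs, and CX3CR1 (3.28, adjusted p = 0.0177), in 3 of 4. None of 11 type 1 genes was called (6 with the dog as a block). Of 11 naive and memory genes 2 were lower, IL7R (-0.69, adjusted p = 0.0176) and TCF7 (-0.74, adjusted p = 0.0263). TOX (0.57, adjusted p = 0.0279) and IKZF2, the gene of Helios (1.45, adjusted p = 0.0225), were higher among 23 other transcription factors, and TCF7 was the only 1 lower. Without dog 2, and likewise without dog 3, no gene of the 4 lists was called here.

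EOMES was higher in CD4 sp cells with GZMK, as in CD8A sp cells, but its level was uneven by KLRK1. Without GZMB, it was 41.4 ± 10.1 CPM (n = 3) in GZMK+KLRK1+ CD4 sp cells and 10.8 ± 4.85 CPM (n = 4) in GZMK+KLRK1- ones. The matching CD8A sp groups ran the other way, at 54.2 and 79.7 CPM (n = 3). The EOMES level was 9.53, 26.3, 19.0 and 24.3 CPM in cells with GZMK (4, 34, 31 and 37 UMIs) and 0.145, 1.12, 1.75 and 1.66 CPM in cells without. The difference was 4.21 on the log2 scale (SE 0.496, adjusted p = 0.00609, 4 of 4 dogs), among 0.231% of 9512 genes called, 0.168% higher and 0.0631% lower (22, and 564 with the dog as a block). The call was lost without dog 2 (4.06, adjusted p = 0.155) and without dog 3 (4.49, adjusted p = 0.117). TBX21 was at 40.5, 36.4, 52.1 and 54.4 CPM with GZMK and at 5.21, 17.7, 14.6 and 31.5 CPM without, higher in 4 of 4 dogs by 1.48 but not past the threshold (SE 0.516, adjusted p = 0.452). ZEB2, with 0, 4, 11 and 18 UMIs in the cells with GZMK, did not pass the filter on low counts.

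Of the effector genes CX3CR1 alone was called here (3.67, adjusted p = 0.00609, 1 of 16; 11 with the dog as a block), and of 23 other transcription factors NR4A1 (0.78, adjusted p = 0.0253), both higher in 4 of 4 dogs. No type 1 and no naive or memory gene of 11 each was called (5 and 5 with the dog as a block). CX3CR1 and NR4A1 were not called without dog 2 or without dog 3.

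EOMES was also higher in the CD4 sp cells with KLRK1. Its level was 15.5, 13.9, 14.6 and 14.3 CPM in them (2, 30, 31 and 25 UMIs) and 0.283, 1.5, 1.85 and 2.71 CPM in cells without KLRK1. The difference of 3.20 on the log2 scale passed the test (SE 0.453, adjusted p = 0.0148, 4 of 4 dogs), where 0.36% of 9452 genes were called, 0.127% higher and 0.233% lower (34, and 1072 with the dog as a block). It was lost without dog 2 (adjusted p = 0.241), without dog 3 (0.228), with at least 2 KLRK1 UMIs (0.0532) and in cells with exactly 1 TRB chain (0.0538). By combination the level was uneven: the 792 of the 1165 cells with KLRK1 that held neither GZMB nor GZMK had EOMES at 3.69 ± 2.76 CPM, and the 300 cells with KLRK1 and GZMK but no GZMB, in 3 dogs, at 41.4 ± 10.1 CPM. TBX21 was at 23.3, 37.0, 40.5 and 44.6 CPM with KLRK1 and 6.10, 16.4, 15.3 and 32.5 CPM without (1.19, SE 0.484, adjusted p = 0.312). ZEB2 was at 7.76, 2.77, 2.36 and 6.86 CPM with KLRK1, from 1, 6, 5 and 12 UMIs, and 0.354, 0.524, 1.52 and 2.20 CPM without (1.83, SE 0.639, adjusted p = 0.220). Both passed with the dog as a block, TBX21 at 1.01 (adjusted p = 7.33e-09) and ZEB2 at 1.61 (adjusted p = 0.00349). CD27 was the only gene of the effector, type 1, naive and memory or transcription factor lists that was called (-0.65, adjusted p = 0.0147), against 10, 9, 7 and 6 genes of these lists with the dog as a block.

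CD4 sp cells with an EOMES UMI numbered 134 and those with a ZEB2 UMI 67, and not all had a productive TRB chain. Of those that had one, 10.2% and 8.70% carried more than 1, against 3.84% over all CD4 sp cells counted the same way. The part of cells with more than 1 TRB chain in the levels was not tested beyond the fits on cells with 1 TRB chain. In those fits EOMES for GZMK kept its call and EOMES for KLRK1 lost it.

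Whether a granzyme or KLRK1 goes with the factors to a different degree in the 2 lineages was tested as an interaction. EOMES and ZEB2 levels were low in CD4 sp cells without the granzyme or KLRK1, so a large fold change there can be a small difference in CPM. The interaction compares log2 fold changes, and a negative value is a smaller log2 fold change in CD8A sp cells. For GZMB it was 0.57 for TBX21, 0.92 for EOMES and -1.14 for ZEB2 (adjusted p = 0.889, 0.889 and 0.772), among 0.032% of genes called (3, and 185 with the dog as a block). For GZMK it was -0.05 for TBX21, -1.77 for EOMES (95% interval -2.68 to -0.87) and -1.56 for ZEB2 (adjusted p = 1, 0.226 and 0.684; 0.0432% of genes called, 0.0108% higher and 0.0324% lower, 4, and 107 with the block). With the dog as a block ZEB2 was called (-1.43, adjusted p = 0.0337). For KLRK1 it was -1.05, -2.80 (95% interval -3.80 to -1.79) and -1.86 (adjusted p = 1, 0.216 and 1), where edgeR called 0% of 9206 genes (344 at an unadjusted p under 0.05, 2 by DESeq2 and 5 with the dog as a block). EOMES was 1 of the genes DESeq2 called, for GZMK (adjusted p = 0.00121) and for KLRK1 (2.29e-05), and edgeR called it for GZMK in cells of 2000 to 6000 UMIs (0.0363) and for KLRK1 without dog 1 (0.00326) and in cells thinned to 2000 UMIs (0.0243). The call of a difference between lineages in EOMES thus changed with the tool, the cells and the dogs used.

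The co-detection of the factors in single CD8A sp cells showed how far they overlap. No member was found in 50.4 ± 8.50% of CD8A sp cells (mean ± SD over dogs). TBX21 alone was found in 19.6 ± 3.55%, TBX21 with ZEB2 in 7.69 ± 3.62%, EOMES alone in 7.14 ± 1.59%, TBX21 with EOMES in 6.10 ± 1.28% and ZEB2 alone in 4.85 ± 1.23%. All 3 together were found in 2.94 ± 1.04% and EOMES with ZEB2 but not TBX21 in 1.32 ± 0.510%. In CD4 sp cells 91.6 ± 4.70% had none of the 3, and TBX21 alone made up 6.83 ± 3.79%.

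**Figure D3:**
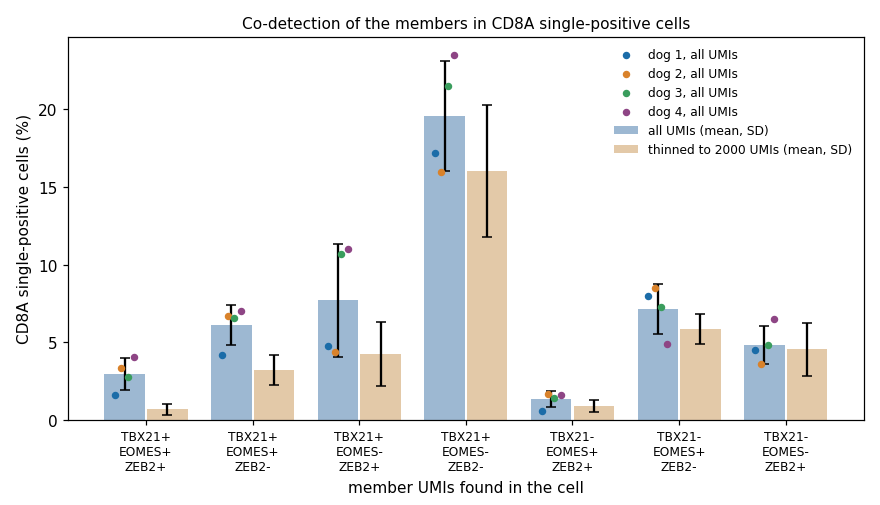
Share of CD8A sp cells (percent, vertical axis) with each combination of TBX21, EOMES and ZEB2 UMIs. The pattern with none of them is not shown. Bars are given with all UMIs and with cells thinned to 2000 UMIs. Each point is 1 dog and each bar the mean of the 4 dogs. With all UMIs, TBX21 alone is the most frequent pattern shown, at 19.6%, and the pair of EOMES and ZEB2 without TBX21 is the rarest, at 1.32%.

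To hold depth and the detection of GZMB equal, the overlap was read in GZMB+ CD8A sp cells thinned to 2000 UMIs each. Cells with fewer UMIs were left out, and the GZMB level among the cells was not held equal. ZEB2 was found in 18.5%, 16.3%, 24.5% and 22.8% of the cells with TBX21 and in 5.41%, 9.22%, 14.5% and 17.5% of those without (mean difference 8.86 ± 3.43 percentage points, 4 of 4 dogs, exact sign-flip permutation p = 0.13, the smallest possible). EOMES was found in 9.68%, 26.9%, 14.1% and 14% of the cells with ZEB2 and in 15.3%, 19.4%, 14.7% and 12.9% of those without (0.616 ± 5.42 points, higher in 2 of 4 dogs, exact permutation p = 0.75). EOMES with and without TBX21 differed by 3.85 ± 6.35 points (3 of 4 dogs, exact permutation p = 0.375). ZEB2 and TBX21 were thus found together more often in each dog, and for EOMES and ZEB2 the dogs did not go the same way.

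CD8A sp cells with EOMES and no ZEB2 (84, 216, 314 and 241 cells) were compared with those with ZEB2 and no EOMES (64, 113, 353 and 355 cells). TBX21 was at 128, 164, 194 and 242 CPM in the former and 168, 238, 367 and 290 CPM in the latter, lower in the former in 4 of 4 dogs. The difference of -0.52 on the log2 scale did not pass the test (SE 0.245, adjusted p = 1), and passed it with the dog as a block (-0.52, adjusted p = 0.018) and with at least 2 UMIs of the defining gene (-0.89, adjusted p = 0.0248). In this comparison 0.0143% of 6977 genes were called, which is 1 gene (290 at an unadjusted p under 0.05, 2 by DESeq2 and 48 with the dog as a block). That gene was KRT18, a keratin gene, higher in the cells with EOMES and no ZEB2 (1.70, SE 0.275, adjusted p = 0.0109, 4 of 4 dogs). Without dog 1, 2 or 3 no gene was called (288, 283 and 228 at an unadjusted p under 0.05). None of the genes of the 4 lists was called. With the dog as a block, 2 effector, 3 type 1 and 4 naive and memory genes were higher in the cells with EOMES and no ZEB2. In the same fit 2 other transcription factors were lower in them. Over all CD8A sp cells, the mean TBX21 level was 208 ± 45.2 CPM with EOMES and 131 ± 48.3 CPM without.

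TBX21 itself split the CD8A sp cells into 2495 with a UMI (median 3629 UMIs per cell) and 3932 without. EOMES was at 67.0, 94.0, 77.7 and 76.8 CPM in the cells with TBX21 and at 33.1, 43.1, 45.5 and 36.9 CPM in those without. ZEB2 was at 70.7, 71.1, 123 and 119 CPM with TBX21 and at 19.3, 22.9, 33.9 and 47.6 CPM without. Both were higher with TBX21 in 4 of 4 dogs. EOMES was higher by 0.97 on the log2 scale (SE 0.124, adjusted p = 0.00191), a call that held in every alternative run. ZEB2 was higher by 1.63 (SE 0.312, adjusted p = 0.0469), and its call was lost without dog 1, 2 or 3 (adjusted p = 0.121, 0.106 and 0.264), without the filter on low counts (0.103) and with library size in place of TMM. In all 2.14% of 9095 genes were called, 1.15% higher and 0.99% lower (195, and 1282 with the dog as a block).

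Beside ZEB2, the genes that rose most with TBX21 by the rule for named genes were S1PR5 (1.57, adjusted p = 0.0314), the kinase gene FGR (1.53, adjusted p = 4.77e-05), GZMB (1.35, adjusted p = 0.00147), PLEK, the gene of pleckstrin (1.33, adjusted p = 0.00969), FASLG (1.29, adjusted p = 0.0453), the natural cytotoxicity receptor gene NCR1 (1.26, adjusted p = 0.00339) and ADGRL1 (1.20, adjusted p = 0.0361). Those that fell most were PSEN2 (-2.18, adjusted p = 0.0128), JAML (-1.93, adjusted p = 0.0448), FAM241A (-1.80, adjusted p = 0.0494), TSPAN5 (-1.76, adjusted p = 0.00642), KRT18 (-1.64, adjusted p = 0.00339), USP13 (-1.63, adjusted p = 0.0494), ID3 (-1.55, adjusted p = 0.0475) and MGAT5 (-1.55, adjusted p = 0.00339). The rule required the same direction in 4 of 4 dogs. KRT18 was thus lower with TBX21 here. In the comparison before, it was higher in cells with EOMES and no ZEB2 than in cells with ZEB2 and no EOMES. NCR1 is on the list of NK cell markers and made up most of their sum. That sum was 18.6 to 31.8 CPM with TBX21 and 9.60 to 13.1 CPM without, and the part of these markers was not tested.

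Of the lists, 4 of 20 effector genes and 2 of 11 type 1 genes were higher with TBX21 (14 and 4 with the dog as a block), the latter IL12RB2 (1.05, adjusted p = 0.0327) and IL2RB (0.76, adjusted p = 0.00329). The median log2 fold change of the effector genes was 0.71, and that of the type 1 genes -0.005. Of 11 naive and memory genes 2 were lower, ID3 and TCF7 (-1.26, adjusted p = 0.000675). Among 23 other transcription factors 1 was higher and 3 were lower, among them ZEB1, the relative of ZEB2 (-0.55, adjusted p = 0.0371).

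In CD4 sp cells TBX21 was found in 929 cells (median 4828 UMIs per cell, against 3955 over all CD4 sp cells). EOMES was at 0, 7.04, 8.16 and 5.78 CPM with TBX21, from 29 UMIs, and at 0.434, 2.83, 3.87 and 3.94 CPM without (1.11, SE 0.679, adjusted p = 0.489). ZEB2 did not pass the filter on low counts. The genes called were 0.0105% of 9557, a single gene, ACTN1, which encodes alpha actinin (-1.40, SE 0.179, adjusted p = 0.0314, 4 of 4 dogs), with 1387 genes at an unadjusted p under 0.05, 143 called by DESeq2, 669 with the dog as a block and none without dog 3 (945 at an unadjusted p under 0.05). No gene of the 4 lists was called (9, 4, 8 and 6 with the dog as a block).

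Some smaller groups were described without a test. CD4 sp cells with CXCR3, the chemokine receptor of type 1 cells, had TBX21 at 32.8, 35.1, 31.2 and 39.7 CPM in dogs 1 to 4 (2457 cells). CD4 sp cells with FOXP3, the factor of regulatory T cells, had TBX21 at 23.5 ± 2.21 CPM and EOMES at 1.47 ± 1.70 CPM, and no ZEB2 UMI was found in their 622 cells, which allows up to 0.482% of cells with a UMI (not of cells that express the gene) and a level of up to 0.907 CPM. GATA3+FOXP3- CD4 sp cells had TBX21 at 19.6 ± 12.7 CPM (3894 cells). The naive gate in CD8A sp cells (CCR7 and LEF1 without the 3 gating genes, 355 cells) held 1 TBX21, 5 EOMES and 0 ZEB2 UMIs, the last allowing up to 0.845% of cells with a UMI and a level of up to 1.94 CPM. CD8A sp cells with FCER1G, a signalling adaptor of innate-type cells, had EOMES at 84.1 ± 16.8 CPM, and those with GZMB and no FCER1G 71.7 ± 8.44 CPM. TBX21 stood at 170 ± 26.5 and 214 ± 71.9 CPM in the same groups and ZEB2 at 70.8 ± 8.51 and 78.7 ± 37.5 CPM.

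Cells with the same pair of TRA gene segments were found in all dogs. CD8A sp cells with a TRA rearrangement of TRAV9-11 and TRAJ28 numbered 153, 181, 244 and 97 in dogs 1 to 4. They had EOMES at 119, 135, 126 and 88.6 CPM, above the 42.8 to 59.8 CPM of all CD8A sp cells in each dog. GZMB+GZMK+KLRK1+ CD8A sp cells with any receptor were nearer, at 97.4, 110, 88.2 and 97.3 CPM, and were the higher group in dog 4. The TRAV9-11/TRAJ28 cells had TBX21 at 201 ± 39.0 CPM and ZEB2 at 70.2 ± 23.2 CPM. The 675 cells held 239 different TRA junctions, and the most frequent, in 102 cells of 1 dog, is shown to identify them, 5′ to 3′, with the bases between the aligned V and J parts in capitals.
TRAV9-11/TRAJ28 junction: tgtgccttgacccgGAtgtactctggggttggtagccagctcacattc

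Clones gave a view of the factors within cells that share a receptor. A clone was a set of CD8A sp cells of a dog with the same single productive TRB rearrangement, and 31 clones had at least 20 cells (3, 4, 11 and 13 in dogs 1 to 4). Their cells share a source and are not replicates, so levels are given with exact Poisson 95% intervals, which cover counting error only. The junctions of 7 of them are printed because their levels are described next or, for rank 7 of dog 3, because its GZMB level was the lowest of the 31 (11.6 CPM), 5′ to 3′, with the bases between the V and J alignments in capitals.
Dog 4, rank 1, TRBV3-1/TRBJ2-1, 119 cells: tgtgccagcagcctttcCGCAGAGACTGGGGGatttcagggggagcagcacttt
Dog 4, rank 2, TRBV1/TRBJ2-3, 108 cells: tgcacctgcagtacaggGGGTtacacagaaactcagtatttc
Dog 4, rank 4, TRBV3-1/TRBJ2-3, 53 cells: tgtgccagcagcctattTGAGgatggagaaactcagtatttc
Dog 3, rank 1, TRBV5-2/TRBJ1-2, 146 cells: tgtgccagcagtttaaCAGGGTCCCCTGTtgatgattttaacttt
Dog 3, rank 6, TRBV25/TRBJ1-1, 54 cells: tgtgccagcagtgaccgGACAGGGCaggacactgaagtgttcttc
Dog 3, rank 7, TRBV7/TRBJ2-1, 34 cells: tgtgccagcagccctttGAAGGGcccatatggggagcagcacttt
Dog 1, rank 3, TRBV28/TRBJ2-6, 20 cells: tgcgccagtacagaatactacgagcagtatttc

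The clone of rank 1 in dog 4 had TBX21 at 46.0 CPM (29.2 to 69.0), no EOMES UMI (up to 7.38 CPM) and ZEB2 at 18.0 CPM (8.23 to 34.2), with GZMB at 110 CPM. The next clone of the same dog had TBX21 at 365 CPM (305 to 433), EOMES at 111 (79.0 to 151) and ZEB2 at 152 (115 to 198), with GZMB at 2778 CPM. Clones of similar size in a dog thus differed in the 3 factors by more than their intervals.

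Of the 31 clones, 6 had GZMB under 200 CPM, 2 in dog 2, 1 in dog 3 and 3 in dog 4 (246 cells). In these 6 clones TBX21 ranged from 17.9 to 71.4 CPM, EOMES from 0 to 5.96 CPM, with 1 UMI among 1179652, and ZEB2 from 0 to 29.8 CPM. GZMK was low in them too, at 0 to 75.2 CPM, while KLRK1 ranged from 227 to 501 CPM. The other 25 clones, with GZMB from 376 CPM up, had TBX21 from 93.1 to 519 CPM, EOMES from 14.5 to 158 CPM and ZEB2 from 8.26 to 256 CPM, with KLRK1 from 87.2 to 688 CPM. Their GZMK ranged from 314 to 3399 CPM, so GZMB and GZMK separated the same clones. The split of clones at 200 CPM was set after their values had been seen and is a description.

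Among the clones with high factors, rank 6 of dog 3 had the highest TBX21 (519 CPM, 408 to 651) and ZEB2 (256 CPM, 180 to 353). Rank 4 of dog 4 had GZMB at 376 CPM, the lowest of the 25, with TBX21 at 288 CPM (218 to 375) and ZEB2 at 139 CPM (91.6 to 202). Rank 3 of dog 1, in which 100% of the cells carried a TRA rearrangement of TRAV9-11 and TRAJ28, had EOMES at 144 CPM (72.1 to 258) and TBX21 at 118 CPM (54.0 to 224). The large clone of dog 3, rank 1, had TBX21 at 276 CPM (234 to 323), EOMES at 81.1 CPM (59.2 to 109) and ZEB2 at 105 CPM (79.4 to 135). The clones did not fall in a single order for the 3 genes.

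**Figure D4:**
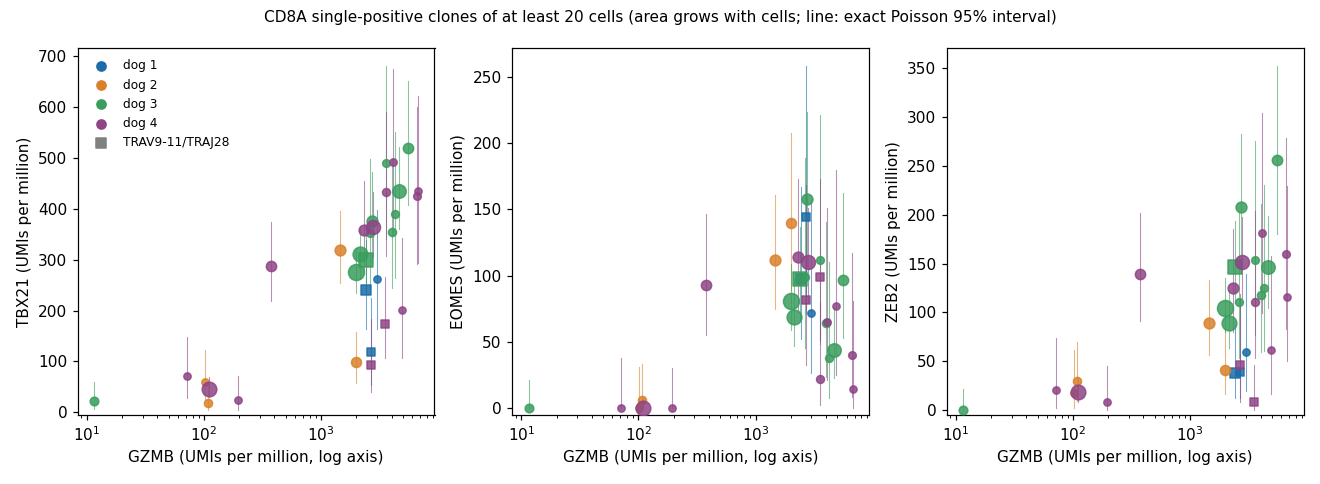
Levels of TBX21, EOMES and ZEB2 (CPM, vertical axes) against the GZMB level (CPM, horizontal log axis) in 31 CD8A sp clones with at least 20 cells; each point is 1 clone, coloured by dog, with its 95% Poisson interval. The 6 clones with GZMB under 200 CPM have EOMES at or below 5.96 CPM and TBX21 at or below 71.4 CPM. Their GZMK level, not shown, is at or below 75.2 CPM.

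Expansion was compared over all CD8A sp cells with exactly 1 TRB chain. In expanded cells, whose TRB rearrangement occurred in at least 2 cells of the dog, TBX21 was at 137, 136, 230 and 210 CPM, and in singletons at 59.7, 91.4, 60.9 and 119 CPM. EOMES was at 68.5, 66.6, 69.4 and 56.4 CPM in expanded cells and at 26.2, 49.5, 39.7 and 54.0 CPM in singletons. ZEB2 was at 48.3, 46.7, 88.9 and 82.8 CPM in expanded cells and at 22.6, 29.8, 22.7 and 60.7 CPM in singletons. Each was higher in the expanded cells of 4 of 4 dogs, and none passed the test: TBX21 1.08 (SE 0.277, adjusted p = 0.151), EOMES 0.54 (SE 0.157, adjusted p = 0.121) and ZEB2 1.0 (SE 0.374, adjusted p = 0.321), in a comparison with 1.19% of 8290 genes called, 0.374% higher and 0.82% lower (99, and 599 with the dog as a block). DESeq2 called TBX21 (1.07, adjusted p = 0.000795). Of 20 effector genes 2 were higher (5 with the dog as a block), such as CST7, the gene of cystatin F (0.73, adjusted p = 0.00136), and 1 of 11 type 1 genes. Of 11 naive and memory genes 3 were lower (7 with the dog as a block), such as LEF1 (-2.50, adjusted p = 0.00696) and ID3 (-2.21, adjusted p = 0.00517), and 3 of 21 other transcription factors were lower. Each gene named moved the same way in 4 of 4 dogs.

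In CD4 sp cells TBX21 was at 18.3, 34.0, 37.2 and 43.2 CPM in expanded cells (132, 770, 477 and 1189 cells) and at 6.63, 13.1, 14.7 and 23.6 CPM in singletons. EOMES was at 0, 4.14, 10.3 and 5.40 CPM in expanded cells, from 0, 15, 23 and 28 UMIs, and at 0.396, 1.99, 2.21 and 1.38 CPM in singletons. TBX21 was higher in 4 of 4 dogs and EOMES in 3 of 4. TBX21 differed by 1.33 (SE 0.346, adjusted p = 0.0642) and EOMES by 1.95 (SE 0.556, adjusted p = 0.0669), both just short of the threshold, and both passed it with the dog as a block (1.16, adjusted p = 6.87e-06, and 1.68, adjusted p = 0.0025). Both also passed it without dog 1 (adjusted p = 0.0145 and 0.0350), and TBX21 without dog 4 (0.0379). ZEB2 did not pass the filter on low counts. Here 5.24% of 9364 genes were called, 2.97% higher and 2.27% lower (491, and 1518 with the dog as a block), but 4 without dog 2 and 41 without dog 3.

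Of 11 type 1 genes, which include targets of T-bet known from other species, 5 were higher in expanded CD4 sp cells (9 with the dog as a block, none without dog 2), among them IL12RB2 (2.75, adjusted p = 0.0446), IFNG (2.06, adjusted p = 0.0273) and IL18R1 (1.12, adjusted p = 0.0340). Of 16 effector genes 4 were higher, such as PRF1 (2.31, adjusted p = 0.0341), and 1 was lower. Of 11 naive and memory genes 5 were lower, such as CCR7, the homing receptor gene of naive cells (-1.78, adjusted p = 0.00362), TCF7 (-0.67, adjusted p = 0.00403) and ID3 (-1.19, adjusted p = 0.00335). The directions held in 4 of 4 dogs for each of these.

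The genes most like each factor were ranked by Pearson's r of log2(CPM + 10), centred within each dog, over 45 sums of the combinations with at least 50 cells, among 7528 genes. The sums come from 4 libraries and share their dogs and gating, so r is a description. For TBX21 they were PRF1 (r = 0.960), PIP4K2A, BCL2A1, ABI3, ZFP36 and SRGAP3 (0.941 for the last). For EOMES they were AIFM3 (0.942), FASLG, ADGRG1, PRF1, CBLB and SNTB1 (0.902 for the last). For ZEB2 they were ITGAM (0.967), CTSA, SLAMF7, MTPN, AOAH and KLRB1 (0.935 for the last). Between the members r was 0.923 for TBX21 with ZEB2, 0.840 for TBX21 with EOMES and 0.786 for EOMES with ZEB2.

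ITGAM, the integrin CD11b, is also a marker of monocytes and was on the list of markers of other cells. It stood at 177 CPM in CD8A sp cells and 0.896 CPM in CD4 sp cells. The summed level of the 6 monocyte markers used (7 of 9 listed were in the files, and S100A8 was left out) was 221 to 408 CPM over the dogs in CD8A sp cells with ZEB2 and 60.5 to 226 CPM in those without. ITGAM alone made up 99.9% and 99.6% of these sums, while LYZ was at 0.271 and CD68 at 0.310 CPM in CD8A sp cells. The sum was 143 to 381 CPM with GZMB and 17.1 to 91.5 CPM without, 137 to 379 with GZMK and 37.2 to 143 without, and 168 to 402 with TBX21 and 47.5 to 156 without. The markers CSF1R, S100A12 and FCGR1A were at 0 in all kept cells. The 3 NK cell markers measured, mostly NCR1, summed to 16.4 to 50.2 CPM with ZEB2 and 12.2 to 16.8 CPM without. The 4 B cell markers used (5 in the files, CD79A left out) summed to 0 to 5.07 and 1.22 to 3.96 CPM, with PAX5 at 0. S100A8, left out of the monocyte sum, was found in 77.5% of all kept cells, at 1749 CPM in CD8A sp and 2202 CPM in CD4 sp cells. CD79A, left out of the B cell sum, was found in 98.8%, at 9763 and 9722 CPM. The source of these transcripts was not tested. The T cell markers summed to 4172 to 4405 CPM with ZEB2 and 3717 to 3999 CPM without. In CD4 sp cells with GZMK, ITGAM was higher by 5.17 (adjusted p = 0.00609) beside EOMES. The part of monocytes or NK cells in these levels was not tested.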

How the data were processed

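Blood TCRαβ T cells of 4 Beagles, thawed and run together, were measured by 5′ single-cell RNA sequencing with matched T cell receptor libraries. The deposited matrices hold raw counts of UMIs for each gene and barcode (26904346 to 35661623 UMIs per library), which the authors made with Cell Ranger 5.0.1 on CanFam 3.1, and the receptor tables hold UMIs per rearrangement. The gene list of dog 1 held 27980 lines for 20257 matrix rows and was not used. The list of dogs 2 to 4 named its rows, and the row totals on a log scale matched between dog 1 and the other dogs at r = 0.989 to 0.991.

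From these files, cells with 500 to 20000 UMIs and at most 10% mitochondrial UMIs were kept, and a cell was positive for a gene at 1 UMI or more. No doublet caller was run. Cells with CD4 and CD8A UMIs were left out of the comparisons, and a setting with exactly 1 TRB chain was tried. UMIs were summed per dog and group of at least 20 cells and compared with edgeR 4.0.16 (TMM, filterByExpr, robust quasi-likelihood test, limma 3.58.1, R 4.3.3), with Benjamini-Hochberg adjustment over all genes tested and DESeq2 1.42.0 as an alternative. The code was tested on simulated data. Shares and permutation tests used Python 3.11.15 with scipy 1.17.1, numpy 2.4.6 and pandas 2.3.3. Intervals are 95%: those of clone levels are exact Poisson and cover counting error only, and those of fold changes come from the fit over dogs. At a count of 0 the limit is 3 counts.

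The main fit had no term for the dog. The samples pair by animal, and the deviations of sums of the same dog correlated at 0.152 to 0.672, so blocked values stand beside the results they change. The genes named are the 3 members, genes of the lists (effector, type 1, naive and memory, other transcription factors), the 6 genes most correlated with each member, and, for the splits by a member, up to 8 genes called in each direction with the same direction in all dogs and a mean of at least 20 CPM. KRT18 and ACTN1 fall under this rule, and ITGAM was named as a marker. The members and lists were chosen with earlier results of these data known. The alternatives were other normalizations and filters, cell depth, mitochondrial share, stricter positivity, clone size, the dog block and leaving out each dog.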

Additional observations from a re-analysis of the deposited data

Results flagged for a closer look

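In 5 of 128 groups of values tested, 1 dog stood apart from the other dogs by Dixon's test, and chance flags about 1 in 20 groups. The ZEB2 level in GZMB-GZMK-KLRK1+ CD8A sp cells was 9.71 CPM in dog 3, against 22.6 to 24.7 CPM in the other dogs. In CD8A sp cells without GZMB, ZEB2 was at 31.7 CPM in dog 4, against 14.7 to 15.6 CPM. In naive CD8A sp cells TBX21 was at 7.74 CPM in dog 4, from 1 UMI, and at 0 in the other dogs. In GZMB+GZMK-KLRK1- CD4 sp cells EOMES was at 7.50 CPM in dog 1, from 1 UMI, and at 0 in the other dogs. In naive CD4 sp cells ZEB2 was at 1.31 CPM in dog 4, against 0 to 0.213 CPM.

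Double-negative cells, which entered no comparison, held the 3 transcripts above the level of the naive CD4 sp cells used as background. Their mean TBX21 level was 24.3 CPM against 8.13 CPM, their EOMES level 6.77 against 0.472 CPM and their ZEB2 level 4.20 against 0.422 CPM. A TBX21 UMI was found in 7.17% of double-negative and 7.16% of all CD4 sp cells (means over dogs). The shares were 2.13% and 1.06% for EOMES and 1.22% and 0.522% for ZEB2.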

How the results depend on the processing

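With 1 dog left out, 126 of 152 fold changes of TBX21, EOMES and ZEB2 kept their direction and side of the threshold, and 329 of 368 did under the other alternatives. EOMES for GZMK in CD8A sp cells, EOMES for TBX21 in CD8A sp cells and the 3 differences between CD8A sp and CD4 sp cells kept their calls in every alternative run. The dogs pair the groups because they are the same animals, and the paired analysis used the dog as replicate block. It changed the calls listed for it here and in the report, and no other call of the 3 genes. With library size only, the genes higher and lower went from 16 and 6 to 15 and 10 for GZMK in CD4 sp cells, from 12 and 22 to 9 and 26 for KLRK1 in CD4 sp cells, from 175 and 48 to 185 and 29 for GZMB in CD4 sp cells, from 282 and 171 to 229 and 200 for GZMK in CD8A sp cells, from 31 and 68 to 42 and 60 for expansion in CD8A sp cells, from 1 and 0 to 1 and 1 for EOMES against ZEB2 (also with RLE size factors) and from 0 and 3 to 1 and 4 for the GZMB difference between lineages. Small counts limit the CD4 sp results: 17 ZEB2 UMIs stand behind its level with GZMB. Counts of 0 genes below are from edgeR, with 215 to 1278 genes at an unadjusted p under 0.05. The cause of these changes was not tested. Below, the first gene of each pair is the one measured and the second the split it was measured over, with its log2 fold change in parentheses.

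With DESeq2, calls were gained for ZEB2 for GZMK in CD8A sp cells (1.34), TBX21 for GZMB in CD4 sp cells (1.53), TBX21 for expansion in CD8A sp cells (1.07), TBX21 for expansion in CD4 sp cells (1.23), EOMES for expansion in CD4 sp cells (1.88), EOMES for the GZMK difference between lineages (-1.79) and EOMES for the KLRK1 difference between lineages (-2.77). The sign turned for ZEB2 for KLRK1 in CD8A sp cells (0.0064). The genes called were 51 for KLRK1 in CD8A sp cells, 502 for GZMB in CD4 sp cells, 99 for GZMK in CD4 sp cells, 121 for KLRK1 in CD4 sp cells, 2 for EOMES against ZEB2, 301 for TBX21 in CD8A sp cells, 143 for TBX21 in CD4 sp cells, 193 for expansion in CD8A sp cells, 79 for the GZMB difference between lineages, 32 for the GZMK difference between lineages and 2 for the KLRK1 difference between lineages. With RLE size factors, the genes called were 2 for EOMES against ZEB2.

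With cells thinned to 2000 UMIs, calls were gained for TBX21 for expansion in CD4 sp cells (1.55) and EOMES for the KLRK1 difference between lineages (-2.82). A change of sign was seen for ZEB2 for KLRK1 in CD8A sp cells (0.026). Genes called numbered 12 for GZMB in CD4 sp cells, 13 for GZMK in CD4 sp cells, 8 for TBX21 in CD4 sp cells, 2 for the GZMK difference between lineages and 1 for the KLRK1 difference between lineages. The percentages were 24.2 for the share of CD8A sp cells with a TBX21 UMI, 10.6 for the share of CD8A sp cells with an EOMES UMI and 10.4 for the share of CD8A sp cells with a ZEB2 UMI. In cells with exactly 1 TRB chain, calls were gained for ZEB2 for GZMK in CD8A sp cells (1.53). Calls were lost for EOMES for KLRK1 in CD4 sp cells (3.22). The sign turned for ZEB2 for KLRK1 in CD8A sp cells (0.041) and TBX21 for the GZMK difference between lineages (0.033). There were calls of 11 for KLRK1 in CD8A sp cells, 126 for GZMB in CD4 sp cells, 15 for KLRK1 in CD4 sp cells, 10 for the GZMB difference between lineages and 7 for the GZMK difference between lineages.

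In cells of 2000 to 6000 UMIs, calls were gained for EOMES for the GZMK difference between lineages (-2.35). Calls were lost for ZEB2 for GZMB in CD4 sp cells (3.68). A change of sign was seen for ZEB2 for KLRK1 in CD8A sp cells (0.13). The genes called were 1 for GZMB in CD4 sp cells, 2 for EOMES against ZEB2 and 8 for the GZMB difference between lineages. The mean levels in CPM were 40.9 for the EOMES level in CD8A sp GZMB+GZMK-KLRK1+ cells, 62.9 for the EOMES level in CD8A sp GZMB+GZMK-KLRK1- cells, 62.6 for the EOMES level in CD8A sp GZMB-GZMK+KLRK1+ cells, 90.8 for the EOMES level in CD8A sp GZMB-GZMK+KLRK1- cells, 14.7 for the TBX21 level in CD4 sp GZMB+GZMK-KLRK1- cells, 57.6 for the EOMES level in CD4 sp GZMB-GZMK+KLRK1+ cells and 63.0 for the EOMES level in all CD8A sp cells. By these means, EOMES in CD8A sp GZMB+GZMK-KLRK1- cells stood just above that in CD8A sp GZMB-GZMK+KLRK1+ cells, the reverse of the main order.

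With the dog as replicate block, calls were gained for ZEB2 for GZMK in CD8A sp cells (1.35), TBX21 for GZMB in CD4 sp cells (1.38), TBX21 for KLRK1 in CD4 sp cells (1.01), ZEB2 for KLRK1 in CD4 sp cells (1.61), TBX21 for EOMES against ZEB2 (-0.52), TBX21 for expansion in CD4 sp cells (1.16), EOMES for expansion in CD4 sp cells (1.68) and ZEB2 for the GZMK difference between lineages (-1.43). The sign turned for TBX21 for the GZMK difference between lineages (0.0090). Genes called numbered 2782 for CD8A sp against CD4 sp cells, 1646 for GZMB in CD8A sp cells, 1219 for GZMK in CD8A sp cells, 247 for KLRK1 in CD8A sp cells, 954 for GZMB in CD4 sp cells, 564 for GZMK in CD4 sp cells, 1072 for KLRK1 in CD4 sp cells, 48 for EOMES against ZEB2, 1282 for TBX21 in CD8A sp cells, 669 for TBX21 in CD4 sp cells, 599 for expansion in CD8A sp cells, 1518 for expansion in CD4 sp cells, 185 for the GZMB difference between lineages, 107 for the GZMK difference between lineages and 5 for the KLRK1 difference between lineages.

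With expansion set at 5 cells or more, calls were gained for TBX21 for expansion in CD4 sp cells (1.49) and EOMES for expansion in CD4 sp cells (2.18). There were calls of 1014 for expansion in CD4 sp cells. With library size only, calls were lost for ZEB2 for TBX21 in CD8A sp cells (1.64). The genes called were 2 for EOMES against ZEB2, 5 for the GZMB difference between lineages and 7 for the GZMK difference between lineages. With at least 2 UMIs of the member required, the percentages were 13.7 for the share of CD8A sp cells with a TBX21 UMI, 3.56 for the share of CD8A sp cells with an EOMES UMI, 4.08 for the share of CD8A sp cells with a ZEB2 UMI, 0.983 for the share of CD4 sp cells with a TBX21 UMI, 0.161 for the share of CD4 sp cells with an EOMES UMI and 0.0668 for the share of CD4 sp cells with a ZEB2 UMI. With a mitochondrial share of at most 5%, calls were gained for ZEB2 for GZMK in CD8A sp cells (1.41). A change of sign was seen for ZEB2 for KLRK1 in CD8A sp cells (0.00055). Genes called numbered 6 for KLRK1 in CD8A sp cells and 0 for TBX21 in CD4 sp cells.

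Without the filter on low counts, calls were lost for TBX21 for GZMK in CD8A sp cells (1.43) and ZEB2 for TBX21 in CD8A sp cells (1.62). There were calls of 18 for KLRK1 in CD8A sp cells, 36 for GZMK in CD4 sp cells, 75 for KLRK1 in CD4 sp cells, 25 for EOMES against ZEB2, 15 for TBX21 in CD4 sp cells, 182 for expansion in CD8A sp cells and 9 for the GZMB difference between lineages. With at least 2 UMIs of the defining gene, calls were gained for TBX21 for EOMES against ZEB2 (-0.89). Calls were lost for ZEB2 for GZMB in CD4 sp cells (5.01) and EOMES for KLRK1 in CD4 sp cells (3.42). The sign turned for TBX21 for the GZMB difference between lineages (-0.35) and EOMES for the GZMB difference between lineages (-0.38). The genes called were 0 for GZMB in CD4 sp cells, 56 for GZMK in CD4 sp cells, 15 for KLRK1 in CD4 sp cells, 5 for EOMES against ZEB2, 427 for TBX21 in CD8A sp cells, 53 for TBX21 in CD4 sp cells, 0 for the GZMB difference between lineages and 1 for the GZMK difference between lineages.

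Leaving out each dog in turn gave fold changes of TBX21 for GZMB in CD8A sp cells 1.86 to 2.28, EOMES for GZMB in CD8A sp cells 1.66 to 2.05, ZEB2 for GZMB in CD8A sp cells 1.81 to 2.21, TBX21 for GZMK in CD8A sp cells 1.37 to 1.5, ZEB2 for GZMK in CD8A sp cells 1.33 to 1.38, ZEB2 for KLRK1 in CD8A sp cells -0.11 to 0.26, EOMES for GZMB in CD4 sp cells -0.011 to 1.65, ZEB2 for GZMB in CD4 sp cells 2.86 to 3.57, EOMES for GZMK in CD4 sp cells 3.97 to 4.49, EOMES for KLRK1 in CD4 sp cells 2.83 to 3.62, ZEB2 for TBX21 in CD8A sp cells 1.53 to 1.76, TBX21 for expansion in CD4 sp cells 1.16 to 1.5, EOMES for expansion in CD4 sp cells 1.69 to 2.33, TBX21 for the GZMK difference between lineages -0.43 to 0.20 and EOMES for the KLRK1 difference between lineages -2.99 to -2.51. The genes called without 1 dog ranged, by comparison, as follows: CD8A sp against CD4 sp cells 705 to 1274, GZMB in CD8A sp cells 221 to 538, GZMK in CD8A sp cells 226 to 307, KLRK1 in CD8A sp cells 0 to 53, GZMB in CD4 sp cells 6 to 328, GZMK in CD4 sp cells 2 to 37, KLRK1 in CD4 sp cells 1 to 196, EOMES against ZEB2 0 to 3, TBX21 in CD8A sp cells 53 to 135, TBX21 in CD4 sp cells 0 to 87, expansion in CD8A sp cells 42 to 98, expansion in CD4 sp cells 4 to 581, the GZMB difference between lineages 1 to 8, the GZMK difference between lineages 0 to 4 and the KLRK1 difference between lineages 0 to 2.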
